A study of Mus musculus with 6 samples.

Results

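The proximal tubule amino acid transporters considered here are 9 genes chosen by symbol, Slc7a7, Slc7a8, Slc7a9, Slc3a1, Slc3a2, Slc6a18, Slc6a19, Slc6a13 and Slc1a1, out of 34714 genes in the table. All 9 were found, and all 9 passed the filter of a mean of at least 1 FPKM (fragments scaled to transcript length and to the mapped total) that left 12174 genes for testing. RNA was sequenced in 3 Hspa8 knockout and 3 wild-type kidney samples, from mice 8 weeks old on normal chow. HSC70, the product of Hspa8, is the HSP70 chaperone that cells make at all times in the cytosol. The strains obtained for the study included a floxed Hspa8 line on C57BL/6J and a Cdh16-Cre line, whose promoter drives Cre in kidney tubule epithelium, and the wild-type titles name C57. The labels do not say how far the alleles and background of the groups match beyond Hspa8, and do not tie the samples to separate animals, so a p-value here reflects the spread among the libraries of a group, which may be technical. Every n given with an SD counts libraries of a group. The libraries are whole kidney, in which fewer proximal tubule cells and less transcript per cell cannot be told apart. Hspa8 kept 61.4% of its wild-type mean in the knockout libraries. Whole-kidney values do not show which cells lost it, so loss of HSC70 from proximal tubule cells was not tested.

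The proximal tubule takes almost all filtered amino acids back from the tubular fluid. At the brush border, carriers driven by sodium or by exchange bring amino acids into the cell, and at the basolateral side exchangers pass them on to the blood. Several of these carriers are heteromers, in which a light chain of the SLC7 family does the transport and a heavy chain of the SLC3 family brings it to the membrane. In people, loss of SLC3A1 or SLC7A9 causes cystinuria, loss of SLC7A7 causes lysinuric protein intolerance, and loss of SLC6A19 causes Hartnup disorder.

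Promoter windows of 250 bases before to 50 bases after a listed start of a gene are held by the RefSeq table (GRCm38.p6) for 8 of the 9 genes. A gene can have several such starts, and a listed start need not be the outer end of the gene span. They are printed here for Slc7a7 with Slc7a8 and for Slc3a1 with Slc1a1, the pairs of members with the highest Pearson correlation across the libraries, 5′ to 3′ on the gene's strand. Capitals mark any match, on either strand, to GTTAAT (1 arm of the HNF1 site), CAAAGTCCA (a site of HNF4) or TTGCATCA (a site of ATF4). The HNF factors are transcription factors of the proximal tubule and ATF4 is the factor of the amino acid response. The windows lie at chr14:54417895-54418194 on the minus strand for Slc7a7 (the most upstream of its 5 windows), chr14:54781837-54782136 on the minus strand for Slc7a8, chr17:85028097-85028396 on the plus strand for Slc3a1 and chr19:28834885-28835184 on the plus strand for Slc1a1.
Slc7a7: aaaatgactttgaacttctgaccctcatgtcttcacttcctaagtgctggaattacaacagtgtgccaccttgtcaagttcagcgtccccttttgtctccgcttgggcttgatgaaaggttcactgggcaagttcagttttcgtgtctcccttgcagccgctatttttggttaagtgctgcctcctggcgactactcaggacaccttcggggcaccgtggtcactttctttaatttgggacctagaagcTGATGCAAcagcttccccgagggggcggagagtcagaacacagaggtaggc
Slc7a8: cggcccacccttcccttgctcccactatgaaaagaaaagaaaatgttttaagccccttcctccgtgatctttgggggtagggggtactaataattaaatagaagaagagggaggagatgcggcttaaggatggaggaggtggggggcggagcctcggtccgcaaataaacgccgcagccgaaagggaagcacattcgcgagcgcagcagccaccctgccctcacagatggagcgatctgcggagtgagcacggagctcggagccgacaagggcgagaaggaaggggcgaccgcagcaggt
Slc3a1: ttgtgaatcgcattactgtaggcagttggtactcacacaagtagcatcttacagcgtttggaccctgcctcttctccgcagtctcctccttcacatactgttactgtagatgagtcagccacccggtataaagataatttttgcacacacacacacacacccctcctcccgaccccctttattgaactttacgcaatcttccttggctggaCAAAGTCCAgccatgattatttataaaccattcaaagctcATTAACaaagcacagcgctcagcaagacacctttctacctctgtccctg
Slc1a1: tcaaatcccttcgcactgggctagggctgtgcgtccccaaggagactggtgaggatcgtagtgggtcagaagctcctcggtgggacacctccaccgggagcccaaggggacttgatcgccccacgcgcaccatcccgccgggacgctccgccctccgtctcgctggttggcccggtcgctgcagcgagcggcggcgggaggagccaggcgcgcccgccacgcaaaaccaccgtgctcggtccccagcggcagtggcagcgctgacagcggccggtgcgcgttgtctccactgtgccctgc
The window of Slc7a7 held the ATF4 letters on the opposite strand at bases -1 to 7 from its listed start, which 0.895% of all 32851 windows hold somewhere. This window lies wholly inside the Slc7a7 gene span of 54369442 to 54420068. Slc3a1 held the HNF4 letters at bases -39 to -31, found in 0.475% of all windows, and the HNF1 letters on the opposite strand at bases 2 to 7, found in 7.10% of all windows. The windows of Slc7a8 and Slc1a1 held none of these letters, so the members of each pair did not share a match. These matches describe the letters and not binding.

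None of the 9 transcripts was called between the groups by limma on log2(FPKM + 1), with Benjamini-Hochberg adjustment over all 12174 genes. A transcript that was not called is not shown to be unchanged, since the targeted gene was not called either. Their adjusted p-values ran from 0.995 to 0.998, and their unadjusted p-values from 0.139 for Slc3a2 to 0.749 for Slc1a1. Over all tested genes 0 passed an adjusted p under 0.05 (0% called), while 629 (5.17%) had an unadjusted p under 0.05. Of the transporters 0 had an unadjusted p under 0.05 and 0 had groups that did not overlap, against 10.6% of all tested genes with groups apart. Their log2 fold changes were above 0 for 5 and below 0 for 4, with a median of 0.0301, beside a median of -0.0399 over all tested genes. Without knockout library 1 the median of the 9 was -0.17. The sign of a fold change turned for Slc7a9 without knockout library 3 (0.063) or wild-type library 2 (0.0012). For Slc3a1 it turned without knockout library 3 (-0.039) or wild-type library 3 (-0.050). For Slc6a19 it turned without knockout library 1 (-0.17) or without wild-type library 3. It also turned for Slc6a18 without knockout library 2 (-0.0105) and for Slc1a1 without wild-type library 3 (-0.028). The targeted gene itself was lower in the labelled knockout, with 650, 699 and 781 FPKM in knockout libraries 1, 2 and 3 against 1058, 1092 and 1318 FPKM in wild-type libraries 1, 2 and 3 (log2 fold change -0.70, standard error 0.122, limma adjusted p = 0.866).

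**Figure D1:**
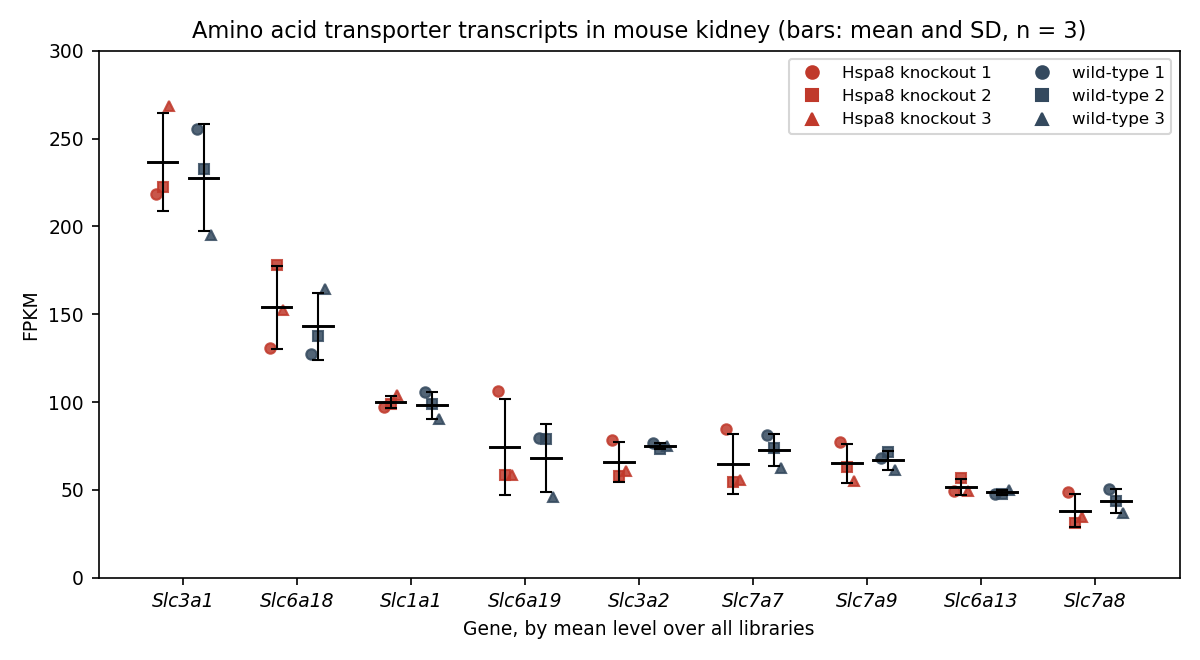
FPKM of the 9 transporters in each library (y axis, linear from 0), ordered by mean level; red points are Hspa8 knockout and dark points wild-type libraries, the marker shape is the library number, and black bars are mean and SD (n = 3). The knockout and wild-type points of every gene overlap, and Slc3a1 lies highest at 195 to 269 FPKM.

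FPKM are per length, so levels can be set side by side between genes. Slc3a1 was the most abundant with a mean of 232 FPKM over the 6 libraries, followed by Slc6a18 at 148 FPKM and Slc1a1 at 99.2 FPKM, and the ranges of these 3 did not overlap. Slc6a19, Slc3a2, Slc7a7 and Slc7a9 followed with means of 71.3, 70.4, 68.7 and 66.0 FPKM, and their ranges overlapped each other. The highest value of Slc6a19, 106.2 FPKM in knockout library 1, was above every value of Slc1a1, whose highest was 105.5 FPKM in wild-type library 1. Slc6a13 at 50.2 FPKM and Slc7a8 at 41.0 FPKM came last, and each overlapped its neighbour in this order. Together the 9 genes summed to 891, 822 and 839 FPKM in knockout libraries 1, 2 and 3 and to 892, 858 and 782 FPKM in wild-type libraries 1, 2 and 3, so the summed levels of the groups overlapped.

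The brush-border heteromer of Slc3a1 and Slc7a9 exchanges filtered cystine and dibasic amino acids for neutral ones. Slc3a1 (chromosome 17, 85028347 to 85064241), which encodes the heavy chain rBAT, had 219, 222 and 269 FPKM in knockout libraries 1, 2 and 3 against 255, 233 and 195 FPKM in wild-type libraries 1, 2 and 3. The highest library was knockout 3 and the lowest wild-type 3, and the groups overlapped. The means were 236 ± 28.0 FPKM in knockout and 228 ± 30.3 FPKM in wild-type kidneys (SD, n = 3 each), a log2 fold change of 0.06 with a 95% interval of -0.24 to 0.36. Exons of Slc3a1 share 601 bases with exons of Prepl on the opposite strand, where reads cannot be told apart without strand, and Prepl averaged 29.2 FPKM. Slc7a9 (chromosome 7, 35448727 to 35466034), which encodes the light chain, had 77.3, 62.9 and 55.1 FPKM in knockout libraries 1, 2 and 3 against 67.9, 71.6 and 61.1 FPKM in wild-type libraries 1, 2 and 3. Knockout libraries held both the highest and the lowest value of Slc7a9, and its log2 fold change was -0.05 (95% interval -0.35 to 0.25). Slc3a1 stood above Slc7a9 in every library, and its other known light chain, encoded by Slc7a13 in the late proximal tubule of mice, stood higher still, at 359, 471 and 479 FPKM in knockout libraries 1, 2 and 3 against 449, 456 and 368 FPKM in wild-type libraries 1, 2 and 3.

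The basolateral heteromers share the heavy chain CD98, encoded by Slc3a2, and all 3 of their transcripts had log2 fold changes near -0.20 that did not pass and that moved by over 1.5 times with single libraries left out. Slc3a2 (chromosome 19, 8706882 to 8723369) had 78.7, 57.9 and 60.7 FPKM in knockout libraries 1, 2 and 3 against 76.6, 73.6 and 74.9 FPKM in wild-type libraries 1, 2 and 3. Knockout libraries 2 and 3 lay below all 3 wild-type libraries and knockout library 1 lay above them. Its log2 fold change of -0.20 (95% interval -0.48 to 0.08) had the smallest p of the 9 genes and ranked 1696 of 12174, and it was -0.33 without knockout library 1 and -0.12 without knockout library 2. The SD of Slc3a2 was 11.3 FPKM among knockout libraries and 1.49 FPKM among wild-type libraries (n = 3 each).

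Slc7a7 (chromosome 14, 54369442 to 54420068) encodes the light chain that exports arginine and lysine to the blood. It had 84.6, 54.4 and 55.4 FPKM in knockout libraries 1, 2 and 3 against 81.2, 74.1 and 62.7 FPKM in wild-type libraries 1, 2 and 3. As with Slc3a2, knockout library 1 was the highest of all and knockout libraries 2 and 3 were the lowest. The log2 fold change was -0.19 (95% interval -0.60 to 0.23). It was -0.39 without knockout library 1, -0.29 without wild-type library 3, -0.10 without wild-type library 1, -0.089 without knockout library 3 and -0.076 without knockout library 2. Slc7a7 shares 232 exon bases with Oxa1l on the opposite strand, which averaged 24.9 FPKM.

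Slc7a8 (chromosome 14, 54722215 to 54781886) encodes the light chain LAT2, an exchanger of neutral amino acids. It had 48.7, 31.2 and 34.7 FPKM in knockout libraries 1, 2 and 3 against 50.6, 43.6 and 37.1 FPKM in wild-type libraries 1, 2 and 3. Knockout libraries 2 and 3 were again the lowest, while the highest was wild-type library 1. The mean was 38.2 ± 9.27 FPKM in knockout and 43.7 ± 6.73 FPKM in wild-type kidneys (SD, n = 3 each), a log2 fold change of -0.20 with a 95% interval of -0.61 to 0.20. It was -0.39 without knockout library 1, -0.32 without wild-type library 3, -0.097 without wild-type library 1 and -0.076 without knockout library 2.

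**Figure D2:**
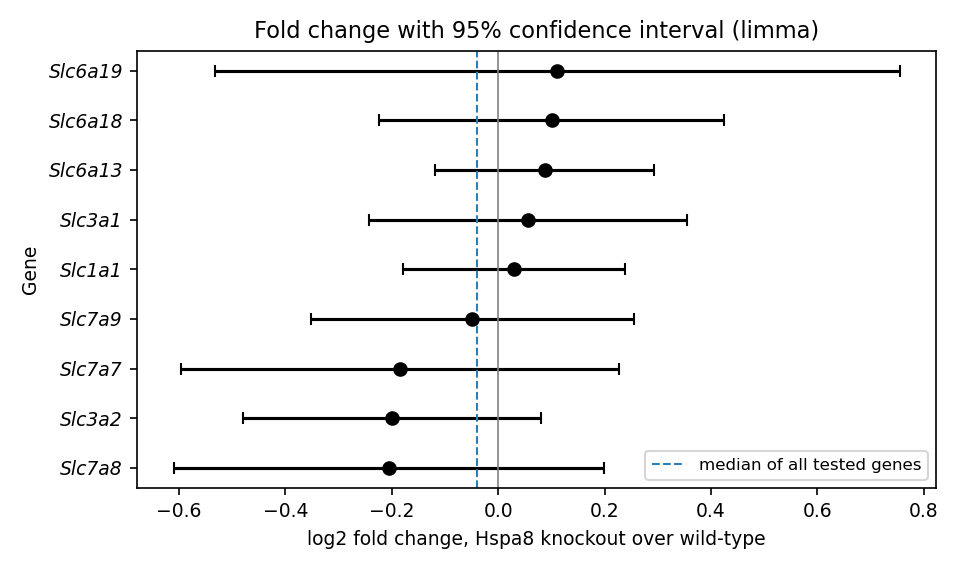
Log2 fold change of each gene, knockout over wild-type, on the log2(FPKM + 1) scale (x axis), with 95% confidence intervals from limma; the dashed line is the median of all tested genes at -0.0399. Every interval includes 0, and that of Slc6a19 is the widest.

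The SLC6 carriers of neutral amino acids at the brush border lie next to each other on chromosome 13. Slc6a19 (73679745 to 73700780) encodes the main sodium-driven carrier of neutral amino acids, and Slc6a18 (73661750 to 73678023) a related carrier of glycine and other neutral amino acids. Slc6a19 had 106, 58.7 and 58.5 FPKM in knockout libraries 1, 2 and 3 against 79.8, 78.8 and 45.8 FPKM in wild-type libraries 1, 2 and 3. Its highest value was 2.32 times its lowest, the widest span of the 9 genes, and both extremes were single libraries, knockout 1 and wild-type 3. The means were 74.4 ± 27.5 FPKM in knockout and 68.1 ± 19.3 FPKM in wild-type kidneys (SD, n = 3 each), a log2 fold change of 0.11 with a 95% interval of -0.53 to 0.75. That fold change was -0.17 without knockout library 1 and -0.15 without wild-type library 3, so its sign rested on each of them.

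Slc6a18 had 131, 178 and 153 FPKM in knockout libraries 1, 2 and 3 against 127, 137 and 165 FPKM in wild-type libraries 1, 2 and 3. The groups overlapped, with knockout library 2 and wild-type library 3 the highest and wild-type library 1 the lowest. Its log2 fold change was 0.10 (95% interval -0.22 to 0.43). The libraries highest in Slc6a18 were among those low in Slc6a19.

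Slc6a13 and Slc1a1 varied least. Slc6a13 (chromosome 6, 121300288 to 121337721) encodes a carrier of GABA and taurine that is basolateral in the proximal tubule. It had 49.3, 56.9 and 49.2 FPKM in knockout libraries 1, 2 and 3 against 47.6, 47.9 and 50.2 FPKM in wild-type libraries 1, 2 and 3, with knockout library 2 alone above the rest. The log2 fold change was 0.09 (95% interval -0.12 to 0.29), and it was 0.020 without knockout library 2. Slc1a1 (chromosome 19, 28835135 to 28913960) encodes the brush-border carrier of glutamate and aspartate, whose loss in people causes dicarboxylic aminoaciduria. Slc1a1 had 97.3, 98.8 and 104 FPKM in knockout libraries 1, 2 and 3 against 106, 98.7 and 90.3 FPKM in wild-type libraries 1, 2 and 3, and the wild-type values spanned the knockout values. Its log2 fold change was 0.03 (95% interval -0.18 to 0.24), the narrowest intervals of the set being those of Slc6a13 and Slc1a1. Slc1a1 shares 2631 exon bases with 4430402I18Rik on the opposite strand, which averaged 9.02 FPKM. Exact two-sided permutation tests of the mean log2(FPKM + 1) gave p = 0.3 for Slc6a13 and 0.4 to 1 for the other 8 genes, where 3 against 3 cannot go below 0.1.

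**Figure D3:**
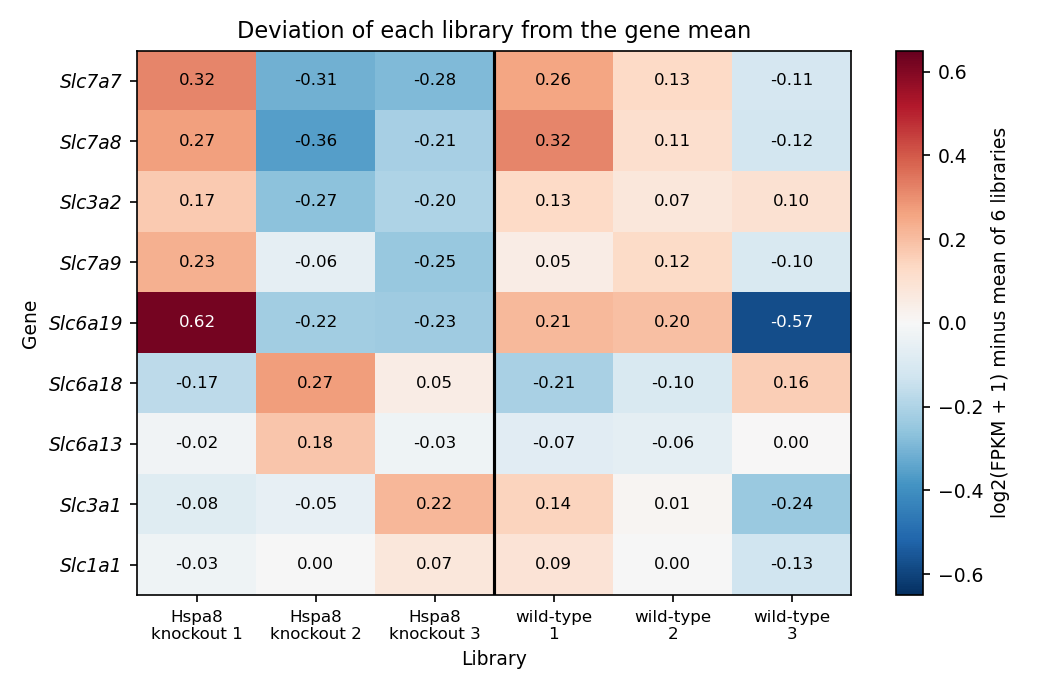
Log2(FPKM + 1) of each gene in each library minus the mean of that gene over the 6 libraries (colour and printed value), knockout libraries left of the line and wild-type libraries right of it. Slc7a7, Slc7a8 and Slc6a19 are high in knockout library 1 and wild-type libraries 1 and 2, and Slc6a18 is low in the same libraries.

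For each of the 9 genes the difference between the group means was smaller than the SD among the knockout libraries, and the libraries of a group differed in a pattern that several genes shared. Slc7a7, Slc7a8, Slc7a9 and Slc6a19 were above their means in knockout library 1 and wild-type libraries 1 and 2 and below them in knockout libraries 2 and 3 and wild-type library 3. Slc3a2 followed the same split except in wild-type library 3, where it was above its mean. Slc6a18 had the opposite sign to those 4 genes in every library. Slc3a1 and Slc1a1 had a pattern of their own, highest in knockout library 3 and wild-type library 1 and lowest in wild-type library 3.

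Over the 36 pairs of members, 8 had a Pearson r of at least 0.8 and 3 of at most -0.8 across the 6 libraries. The share of such pairs among all tested genes was not computed, so these counts are not shown to be particular to the transporters. None passed after Benjamini-Hochberg adjustment over the 36 pairs (smallest adjusted p = 0.0800 for r and 0.171 for rho). Slc7a7 and Slc7a8 had r = 0.98 (exact permutation p = 0.00556) and Spearman's rho = 0.94 (exact permutation p = 0.0167), and r was 0.98 without knockout libraries 1 and 2, the farthest from the median of Slc7a7. Slc3a1 and Slc1a1 had r = 0.96 (exact permutation p = 0.00833) and rho = 0.89 (exact permutation p = 0.0333), with r = 0.96 without knockout library 3 and wild-type library 3. Slc7a8 and Slc6a18 had r = -0.95 (exact permutation p = 0.00972) and rho = -0.94 (exact permutation p = 0.0167), with r = -0.88 without knockout library 2 and wild-type library 1. Slc7a7 and its heavy chain Slc3a2 had r = 0.89 (exact permutation p = 0.0111) and rho = 0.94 (exact permutation p = 0.0167), with r = 0.81 without knockout libraries 1 and 2. Slc7a9 and its heavy chain Slc3a1 had r = -0.26 (exact permutation p = 0.624) and rho = -0.26 (exact permutation p = 0.658), and r = 0.74 without knockout libraries 1 and 3, so that value rests on those libraries. A group of 3 libraries is too small for these correlations to be given within a genotype.

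**Figure D4:**
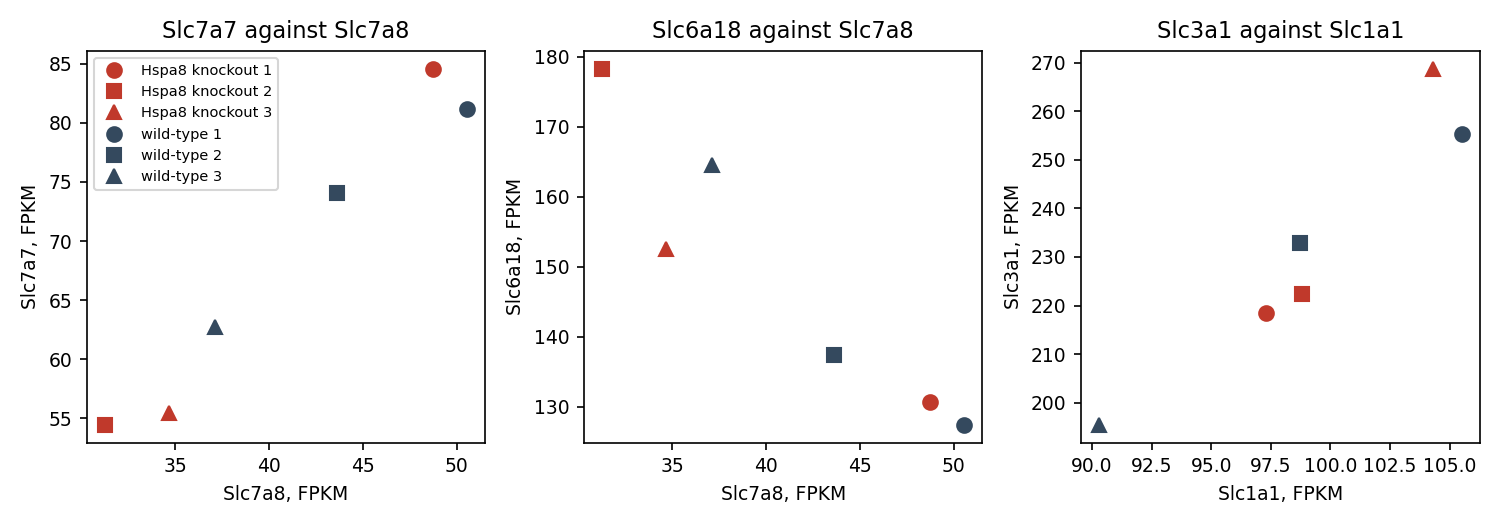
FPKM of Slc7a7 and of Slc6a18 against Slc7a8, and of Slc3a1 against Slc1a1, 1 point per library; red points are Hspa8 knockout, dark points wild-type, and axes do not start at 0. Slc7a7 is high where Slc7a8 is high, Slc6a18 is low there, and knockout and wild-type points are mixed along each band.

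Some other transcripts of the tubule had similar orders of the libraries and some had not, and their part in the pattern was not tested. The transcripts in this paragraph were chosen after their values were seen. Slc5a2, the glucose carrier of the early proximal tubule, had 253, 163 and 171 FPKM in knockout libraries 1, 2 and 3 against 243, 218 and 230 FPKM in wild-type libraries 1, 2 and 3, and like Slc3a2 it was lowest in knockout libraries 2 and 3. Gatm, which makes the creatine precursor guanidinoacetate from arginine and glycine in the proximal tubule, had 412, 248 and 266 FPKM in knockout libraries 1, 2 and 3 against 389, 353 and 292 FPKM in wild-type libraries 1, 2 and 3, the same order as Slc7a7. Slc22a7, an organic anion carrier, had 94.4, 174 and 101 FPKM in knockout libraries 1, 2 and 3 against 116, 124 and 170 FPKM in wild-type libraries 1, 2 and 3, with knockout library 2 and wild-type library 3 the highest, as for Slc6a18. Other proximal tubule markers differed from Slc5a2: Aqp1, the water channel, had 215, 308 and 268 FPKM in knockout libraries 1, 2 and 3 against 252, 262 and 275 FPKM in wild-type libraries 1, 2 and 3, and Lrp2, the endocytic receptor megalin, was highest in knockout library 3. Of the 20 proximal tubule markers, 6 were lowest in knockout library 2 and 6 in wild-type library 3, while 5 were highest in knockout library 1 and 4 each in knockout library 2, wild-type library 1 and wild-type library 3. The 8 thick ascending limb markers summed to 1461, 2229 and 1941 FPKM in knockout libraries 1, 2 and 3 against 1671, 1794 and 2119 FPKM in wild-type libraries 1, 2 and 3. Umod, which encodes uromodulin, gave 762, 1272 and 1061 FPKM of these sums in knockout libraries 1, 2 and 3 and 870, 952 and 1187 FPKM in wild-type libraries 1, 2 and 3. Of the 8 markers 7 were lowest in knockout library 1 and Cldn10 was lowest in knockout library 3, while the highest library varied between them.

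Within a library, ratios of partners hardly depend on how that library was scaled, and 4 were compared. Each ratio was taken as (FPKM + 1) over (FPKM + 1). The log2 ratio of Slc7a9 to Slc3a1 was -1.49, -1.80 and -2.26 in knockout libraries 1, 2 and 3 against -1.89, -1.69 and -1.66 in wild-type libraries 1, 2 and 3, with the wild-type values inside the knockout range. The means differed by -0.10 (exact two-sided permutation p = 0.8). The log2 ratio of Slc7a7 to Slc3a2 averaged -0.038 ± 0.12 in knockout and -0.053 ± 0.18 in wild-type kidneys (SD, n = 3 each; exact permutation p = 0.9). For Slc7a8 to Slc3a2 the averages were -0.78 ± 0.095 in knockout and -0.77 ± 0.20 in wild-type kidneys (SD, n = 3 each; exact permutation p = 1).

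The ratio of Slc6a18 to Slc6a19 moved most between libraries. It was 1.23, 3.01 and 2.58 in knockout libraries 1, 2 and 3 against 1.59, 1.73 and 3.54 in wild-type libraries 1, 2 and 3. On the log2 scale it averaged 1.08 ± 0.69 in knockout and 1.09 ± 0.63 in wild-type kidneys (SD, n = 3 each; exact permutation p = 1). All 4 adjusted p-values over the 4 ratios were 1 (exact permutation test).

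**Figure D5:**
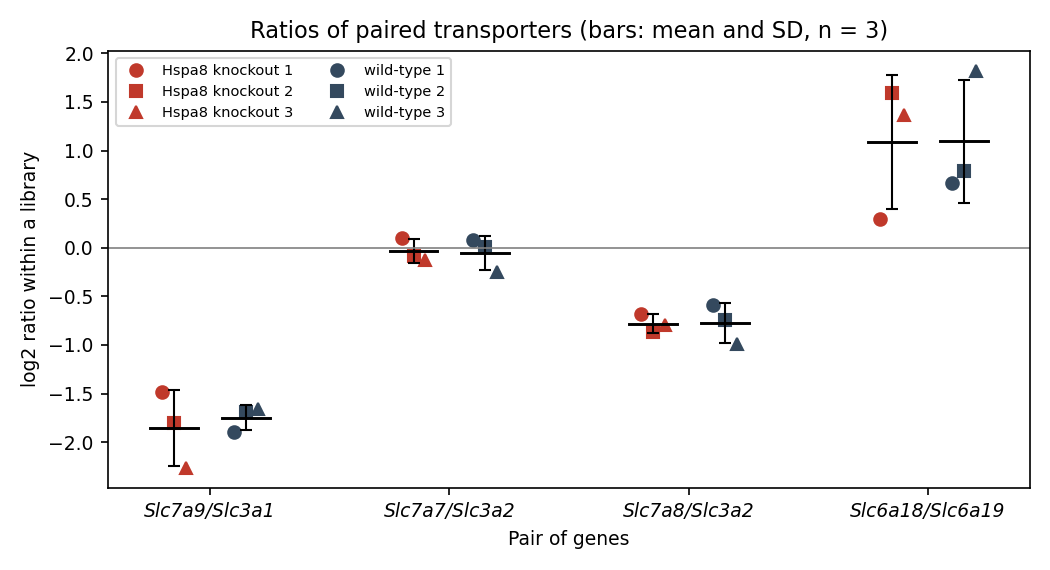
Log2 ratio of 4 pairs of transporters within each library (y axis), with knockout points in red left of wild-type points, and mean and SD as black bars (n = 3). The Slc6a18 to Slc6a19 ratio spans 0.30 to 1.82 over the libraries, with similar means in both groups.

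Of 34 other carriers of amino acids, peptides, taurine, creatine and betaine, 23 were abundant enough to test. None passed over all genes by limma, 10 had log2 fold changes above 0 and 13 below, with a median of -0.0058. Groups did not overlap for 4 of the 23, 1 higher in knockout (2.01% of all tested genes) and 3 lower (8.57% of all). The 3 were Slc66a1, Ctns and Slc38a7. Slc66a1, which exports cationic amino acids from lysosomes, had 9.28, 8.49 and 6.80 FPKM in knockout libraries 1, 2 and 3 against 10.2, 10.5 and 13.3 FPKM in wild-type libraries 1, 2 and 3 (log2 fold change -0.42, standard error 0.135, limma adjusted p = 0.914). Ctns, the lysosomal cystine exporter mutated in cystinosis, averaged 9.48 ± 0.418 FPKM in knockout and 10.8 ± 0.693 FPKM in wild-type kidneys (SD, n = 3 each). Slc38a7, a lysosomal glutamine exporter, averaged 5.79 ± 0.362 FPKM in knockout and 6.79 ± 0.478 FPKM in wild-type kidneys (SD, n = 3 each). Slc38a3, the basolateral glutamine carrier of the proximal tubule, averaged 18.2 ± 2.09 FPKM in knockout and 15.5 ± 1.00 FPKM in wild-type kidneys (SD, n = 3 each; log2 fold change 0.21, limma adjusted p = 0.973), and the log2 fold change was 0.13 without knockout library 2.

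Partners and peptidases of the brush border, 11 of which were tested, had 4 log2 fold changes above 0 and 7 below (median -0.0342), and none passed. Of the 11, 1 had all knockout values higher (2.01% of all tested genes) and 2 had them all lower (8.57% of all). Cltrn encodes collectrin, which Slc6a19 and Slc6a18 need to reach the brush border. It had 982, 898 and 786 FPKM in knockout libraries 1, 2 and 3 against 1016, 996 and 991 FPKM in wild-type libraries 1, 2 and 3, and all knockout values lay below the wild-type values (log2 fold change -0.18, standard error 0.108, limma adjusted p = 0.995), and the log2 fold change was -0.092 without knockout library 3. Dpp4, a dipeptidyl peptidase, also had its knockout values below its wild-type values, with a log2 fold change of -0.03, and is named after its values were seen. Anpep, an aminopeptidase that frees amino acids from peptides, had 48.5, 49.9 and 54.0 FPKM in knockout libraries 1, 2 and 3 against 46.1, 46.6 and 40.7 FPKM in wild-type libraries 1, 2 and 3, with all knockout values higher (limma adjusted p = 0.973). Dpep1, a dipeptidase, averaged 55.7 ± 12.9 FPKM in knockout and 68.8 ± 3.90 FPKM in wild-type kidneys (SD, n = 3 each), with overlapping groups. The scaffold Pdzk1 had a log2 fold change of 0.09.

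Enzymes of amino acid metabolism were below 0 for 22 and above 0 for 8 of 30 tested genes, with a median log2 fold change of -0.0723, and none passed over all genes by limma. Over all tested genes 7896 were below 0 and 4278 above. Bhmt, which remethylates homocysteine, averaged 0.935 ± 0.212 FPKM in knockout and 1.32 ± 0.266 FPKM in wild-type kidneys (SD, n = 3 each). Its mean over the 6 libraries, 1.13 FPKM, was near the filter of 1 FPKM, and its knockout mean lay below that filter. Glul, glutamine synthetase, averaged 154 ± 12.2 FPKM in knockout and 185 ± 34.9 FPKM in wild-type kidneys (SD, n = 3 each). Of 13 tested genes of the ATF4 amino acid response, to which Slc3a2 also belongs, 10 were below 0 and 3 above (median -0.088) and none passed. Atf4 itself had 35.9, 47.3 and 39.0 FPKM in knockout libraries 1, 2 and 3 against 48.7, 44.6 and 69.9 FPKM in wild-type libraries 1, 2 and 3, and Ddit3, a stress factor downstream of it, had a log2 fold change of -0.66 with its highest value, 23.3 FPKM, in wild-type library 3. Without that library the log2 fold change was -0.29 for Ddit3 and -0.20 for Atf4, against -0.39 for Atf4 with all libraries.

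The genes closest to the mean standardised profile of the 9 members over the 6 libraries were Gpatch8, Atpaf1 and Zfp946, with Pearson r = 0.99, 0.98 and 0.98, the highest of all other tested genes. Members with opposed profiles, such as Slc7a8 and Slc6a18 (r = -0.95), partly cancel in this mean, so it does not stand for each member. These values describe the 6 libraries and were not tested.

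The label of the tissue was met by its markers. The proximal tubule genes Lrp2, Cubn, Slc34a1 and Slc5a2 stood at 33.7 FPKM or more in every knockout library and at 30.9 FPKM or more in every wild-type library, and of 20 proximal tubule markers 10 were above 0 and 10 below with a median log2 fold change of -0.0025. Medians were -0.0347 for 8 thick limb, -0.0207 for 14 distal and collecting duct, -0.182 for 10 podocyte, -0.0793 for 7 leukocyte and -0.287 for 10 stromal markers, and 14 of 14 endothelial markers were below 0 with a median of -0.338. Summed endothelial markers were 148, 178 and 134 FPKM in knockout libraries 1, 2 and 3 against 176, 186 and 245 FPKM in wild-type libraries 1, 2 and 3. Wild-type library 3 was the highest library for all 14 endothelial and all 10 stromal markers. Red cell transcripts summed to 413, 69.4 and 546 FPKM in knockout libraries 1, 2 and 3 against 43.3, 51.4 and 53.4 FPKM in wild-type libraries 1, 2 and 3. The part of these cell types in the values of the transporters was not tested. Xist was at most 0.0241 FPKM in knockout and 0.0185 FPKM in wild-type libraries, and the median log2 fold change of 4 tested Y-linked genes was 0.211. Library totals ran from 381586 to 416761 FPKM in knockout and from 403895 to 417123 FPKM in wild-type kidneys, and read depth is unknown.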

How the data were processed

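For 6 libraries of kidney RNA the authors deposited FPKM, values already divided by transcript length and by the mapped total. Per the labels' protocols, RNA came from a silica column kit and libraries from a SMARTer mRNA kit. Builds GRCm38 and mm10 are named in the submitters' processing notes. The aligner, quantifier, annotation and strand setting were not given in the sources used here. Columns were assigned by title, and those starting with A8 were taken as the HSPA8 knockout titles by number.

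Low FPKM showed no steps of whole reads (for genes under 0.1 FPKM, at most 0.762% of the ratios between libraries fell in the same log2 bin of 0.005), so counts were not recovered. FPKM keep no depth, and no interval from depth is given. No values were identical between libraries.

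Genes with a mean of at least 1 FPKM were tested by limma 3.58.1 (R 4.3.3) on log2(FPKM + 1), with the genotype as sole term and a variance trend. The Benjamini-Hochberg adjustment covered all 12174 genes and the threshold was 0.05. A fold change on this scale understates the change of low genes. The test was checked on simulated data. Single values and ratios used exact permutation tests. Gene coordinates and promoters are RefSeq's (GRCm38.p6, 34714 symbols matched), and exon overlaps are GENCODE's.

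Members and lists were chosen with earlier results of these data known. All members were named, and of each related list the 4 (transporters and brush-border partners) or 2 genes with the smallest p where none passed, of which those of cell type lists are given as list summaries. Genes at the end of the correlation results were chosen after their values were seen. Alternatives were other pseudocounts, filters, scalings, variance models, the replicate block and libraries left out. Figures were drawn with matplotlib 3.10.9.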

Additional observations from a re-analysis of the deposited data

How the results depend on the processing

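In 16 alternative fits 0 of the 9 transporters were called, and 0 of 144 values of theirs passed the adjusted threshold. Over all genes 5 were called without knockout replicate 2, and 5 with wild-type replicate 3 and knockout replicate 2 both left out, both times the beta globin genes Hbb-bt, Hbb-bs and Hbb-b1 with the alpha globin genes Hba-a2 and Hba-a1, against 0 in the other 14 (range 0 to 5 with single libraries left out). The log2 fold changes of Slc7a7, Slc7a8, Slc3a2 and Slc6a13 kept their sign in all 16, and with single libraries left out they ran from -0.39 to -0.076, -0.39 to -0.076, -0.33 to -0.12 and 0.020 to 0.12 in that order. With library medians equalised Slc7a9 was at 0.0074. With wild-type replicate 3 and knockout replicate 2 both left out Slc3a1 was at -0.0085, Slc6a19 at -0.0081 and Slc1a1 at -0.019, the log2 ratio of Slc7a7 to Slc3a2 differed by -0.059 and that of Slc6a18 to Slc6a19 by 0.10. With single libraries left out the log2 fold change ran from -0.18 to 0.063 for Slc7a9, -0.050 to 0.14 for Slc3a1, -0.0105 to 0.21 for Slc6a18, -0.17 to 0.25 for Slc6a19 and -0.028 to 0.083 for Slc1a1. The median of the members then ran from -0.17 (without knockout replicate 1) to 0.035. The differences of the log2 ratios ran from -0.29 to 0.10 for Slc7a9 to Slc3a1, -0.084 to 0.083 for Slc7a7 to Slc3a2, -0.11 to 0.088 for Slc7a8 to Slc3a2 and -0.26 to 0.38 for Slc6a18 to Slc6a19. The cause was not tested.

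The median log2 fold change of all genes stayed between -0.0650 and 0.0096. Pairs with r of at least 0.8 numbered 8 to 9 and pairs of at most -0.8 numbered 2 to 3 with medians equalised or log2(FPKM + 0.1), alternatives chosen after seeing the data. Deviations of same-numbered libraries correlated at 0.307, -0.215 and -0.321 for numbers 1, 2 and 3, without a common sign. These values cannot show whether same-numbered samples were paired, and the main fit treated them as unpaired. With the replicate block 0 genes and 0 members were called, and the member median was 0.0301. Depth is unknown, so no detection limit is given.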
